A study of Mus musculus with 12 samples.

Results

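The 10 transcripts described here encode inhibitors that are switched on by mitogen-activated protein kinase (MAPK) signalling and then act back on it: the phosphatases Dusp1, Dusp4, Dusp5 and Dusp6, the Sprouty proteins Spry1, Spry2 and Spry4, the Sprouty-related proteins Spred1 and Spred2, and Phlda1. They were taken by gene symbol from a table of 30743 genes, and all 10 passed the filter on low counts. The samples are RNA-seq libraries of neoplastic cells, sorted from mouse lung tumours of mixed BL6/129 strain. The series asks how the kinase Lkb1, encoded by Stk11, and the salt-inducible kinases (SIKs) that it activates act in lung cancer. All groups carry KT, which the labels do not spell out, and no ages are given. The groups were KT;Lkb1f/f tumours, which carry floxed Lkb1 alleles and are called Lkb1-deleted here after the series' design text (3 libraries), KT;H11LSL-Cas9 tumours with a Cre-dependent Cas9 and guides titled sgSik1 (3 libraries) or sgSik1-3 (2 libraries), and KT tumours (4 libraries). The genotype label joins both guide groups, which are called Sik-targeted where pooled (5 libraries). The titles of the KT libraries name neither Cas9 nor a guide. Against KT, changes with Sik targeting therefore cannot be told apart from those of carrying Cas9 and a guide. The meaning of the range in sgSik1-3 is not stated, and neither is whether the libraries of a group came from separate animals, so a p value here reflects how much libraries differ, some of which may be technical.

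In this pathway a growth factor receptor loads Ras with GTP, Ras recruits Raf, and Raf, MEK and ERK form a chain of kinases that ends at transcription factors in the nucleus. ERK activity raises the transcription of its own inhibitors within a short time, so that these mRNAs are widely used as a readout of the pathway, although Dusp1 and others are also induced by stress and cyclic AMP. In lung adenocarcinoma, which often carries an activated Ras gene, the same inhibitors are known to hold back the signal from the oncogene.

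Library totals lay between 3847760 and 13955181 counts, and levels are CPM, the count scaled to a common library size, with sizes corrected by the trimmed mean of M values (TMM). KT replicates 2 and 3 stood apart: 23582 and 23747 genes were detected there, while each of the other 10 libraries had 14283 to 16533. Among them were 1000 and 1066 olfactory and vomeronasal genes. The 4 most abundant transcripts took 36.5 to 74.2% of the counts in Lkb1-deleted and Sik-targeted libraries and 18.4 to 48.1% in KT, with the highest share in sgSik1 replicate 1. Stk11, read over the whole gene and so no direct check of the floxed part, had 9.23, 16.6 and 9.92 CPM in Lkb1-deleted libraries and 31.0 to 44.7 CPM in KT (log2 change -1.71, adjusted p 0.160). In Sik-targeted libraries Sik1 was at 105 to 514 CPM and in KT at 38.2 to 59.6 CPM (log2 change 2.24, adjusted p 0.00780), Sik2 was also higher (1.22, adjusted p 0.0328) and Sik3 was lower (-1.33, adjusted p 0.0209). Sik1 mRNA was thus not lower in the libraries labelled with its guides, and whole-gene counts do not show small edits at a guide's cut, so they do not check that label. The 4 Y-linked genes summed to at least 49.2 CPM in Lkb1-deleted replicates 2 and 3 and both sgSik1-3 libraries and to at most 1.71 CPM in the other 8, among them all sgSik1 and KT libraries. Among KT libraries, the alternative names of replicates 2 to 4 mention lentiviral Cre and that of replicate 1 does not.

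Against KT, Dusp1, Dusp6, Spry4 and Phlda1 rose with Lkb1 deletion, and the same 4 genes together with Dusp4 and Dusp5 rose with Sik targeting. Changes of the genes that rose were between 1.83 and 2.96 on the log2 scale. Spry1 alone fell with Sik targeting, and no member fell with Lkb1 deletion. A gene passed at an adjusted p of 0.05 in edgeR's quasi-likelihood test, with Benjamini-Hochberg adjustment over all genes tested.

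**Figure D1:**
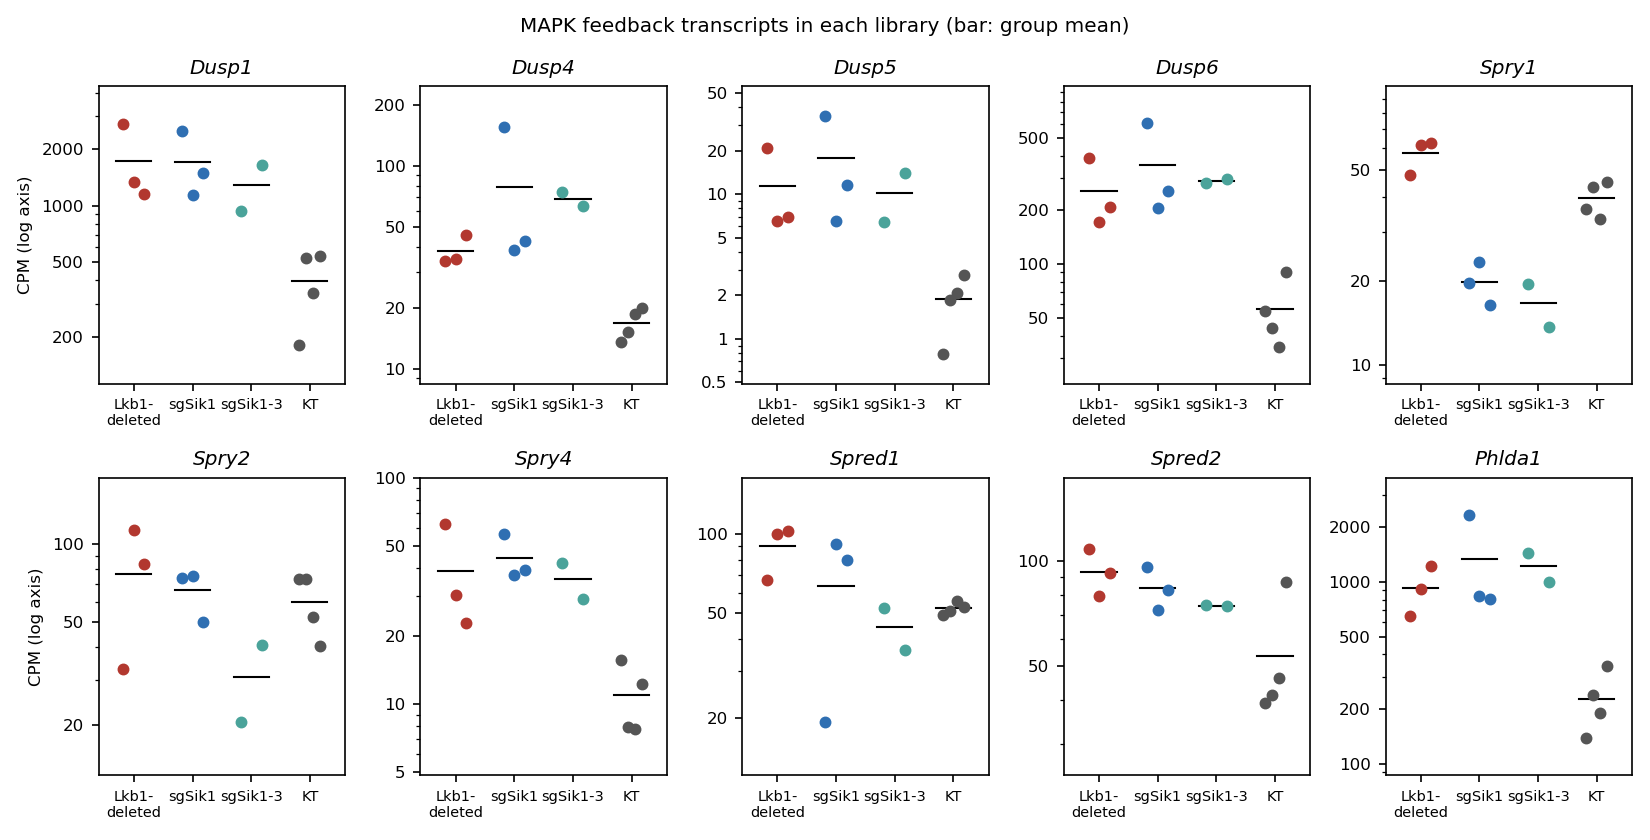
Level of each of the 10 feedback transcripts in every library, as CPM on a log axis, by group (Lkb1-deleted, sgSik1, sgSik1-3, KT). Points are libraries and bars are group means. Dusp1, Dusp4, Dusp5, Dusp6, Spry4 and Phlda1 lie above all KT libraries in all 8 other libraries, and Spry1 is lowest in the sgSik1 and sgSik1-3 libraries.

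Of the 10 members, 4 rose and 0 fell with Lkb1 deletion, where 0.611% of 13575 tested genes rose and 0.552% fell. In 8 of 10 members every Lkb1-deleted library lay above every KT library, which was so for 6.38% of all genes. Spry2 and Spred2 were the members whose groups overlapped. The median log2 change of the members was 1.505, beside -0.04 over all tested genes. At an unadjusted p under 0.05, 7 members passed, beside 1782 genes in all. The adjusted calls depended on single libraries: 0 members passed without KT replicate 1, 2 or 3 or without sgSik1-3 replicate 2. Calls over all genes fell in those fits too, to 31, 14, 13 and 45, beside 158 in the main fit. A single member passed without Lkb1-deleted replicate 1 or 2 or sgSik1 replicate 3, and 2 without Lkb1-deleted replicate 3, KT replicate 4 or sgSik1-3 replicate 1. Over all genes 77 to 121 passed in these last fits.

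With Sik targeting, 6 members rose and 1 fell, where 5.81% of genes rose and 6.56% fell. The groups did not overlap for 6 members that were higher in all Sik-targeted libraries, as for 7.32% of all genes, and for 1 member that was lower, as for 8.79%. The median log2 change was 1.93 over the members and -0.03 over all genes. The 6 genes that rose passed in each of 12 fits that left out a single library, and Spry1 in 11 of 12, the exception being KT replicate 2 (adjusted p 0.0526). Without KT replicates 2 and 3 together, 0 members passed in either comparison, where 3 genes in all passed with Lkb1 deletion and 98 with Sik targeting.

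The size of these changes rests on how libraries are scaled. Scaled by total count alone, the median of all genes shifted to -0.78 with Lkb1 deletion and to -1.06 with Sik targeting. The 6 genes above kept positive changes on that scale, from 0.43 for Dusp4 to 1.84 for Dusp5 with Lkb1 deletion and from 0.86 for Spry4 to 1.74 for Dusp5 with Sik targeting. With Lkb1 deletion 0 members passed, where 155 of 13575 genes passed in either direction. With Sik targeting Dusp5, Dusp6 and Phlda1 rose, Spry1 and Spry2 fell, and Dusp1, Dusp4 and Spry4 did not pass (adjusted p 0.105, 0.0666 and 0.115). On that scale 4565 of 13575 genes passed with Sik targeting in either direction, beside 1679 on TMM sizes.

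**Figure D2:**
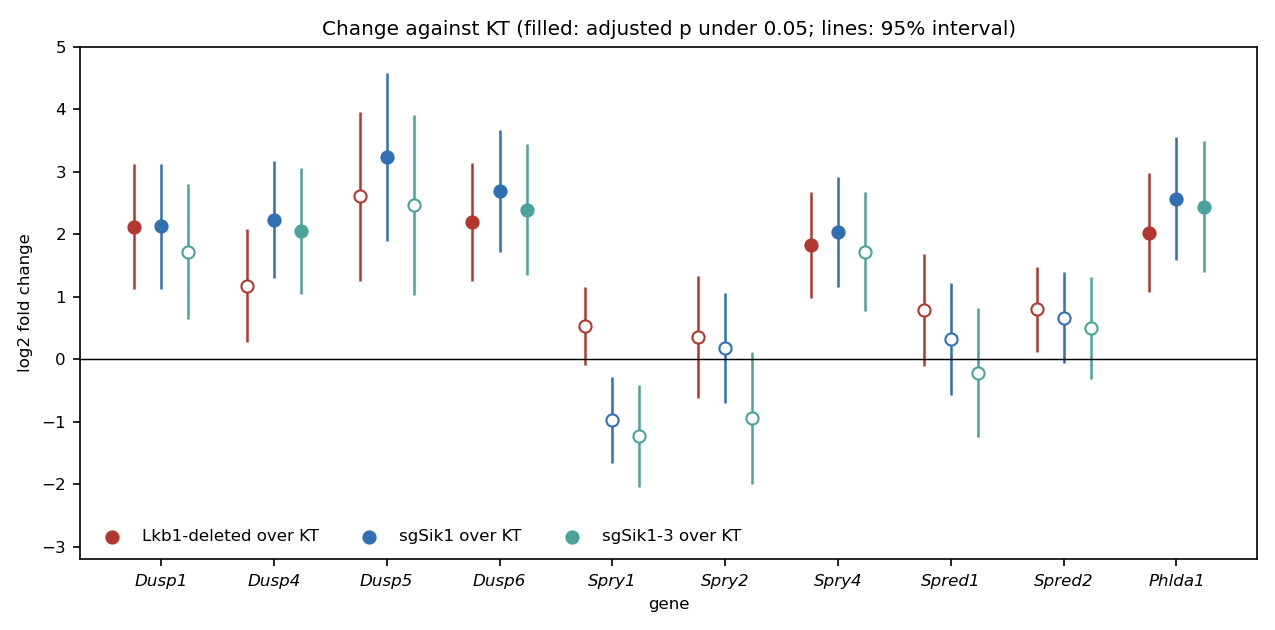
Log2 fold change (y axis) of each member (x axis) against KT in Lkb1-deleted, sgSik1 and sgSik1-3 libraries, from the edgeR fits on TMM sizes. Filled points passed at an adjusted p under 0.05 and lines are 95% intervals. The intervals of Dusp1, Dusp4, Dusp5, Dusp6, Spry4 and Phlda1 lie above 0 in all 3 comparisons, and Spry1 is negative in sgSik1 and sgSik1-3.

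Dusp1 (MKP-1; mm10 chromosome 17, 26505591 to 26508472, minus strand) is a nuclear phosphatase that removes phosphate from JNK, p38 and ERK and is an immediate early gene. It had 2714, 1333 and 1157 CPM in Lkb1-deleted libraries, 2502, 1146 and 1487 CPM in sgSik1, 941 and 1648 CPM in sgSik1-3, and 181, 528, 341 and 541 CPM in KT replicates 1 to 4. The lowest library outside KT thus stood above the highest KT library, and KT replicate 1 was the lowest of all. Dusp1 rose by 2.13 with Lkb1 deletion (SE 0.47, adjusted p 0.0422), which passed in 3 of 12 fits without a single library. It rose by 1.96 with Sik targeting (SE 0.43, adjusted p 0.0116). The Lkb1-deleted libraries differed from the Sik-targeted ones by 0.17, with a 95% interval from -0.77 to 1.11.

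Dusp4 (MKP-2; chromosome 8, 34807610 to 34819894, plus strand), a nuclear phosphatase of ERK, JNK and p38, had 34.1, 34.7 and 45.5 CPM in Lkb1-deleted libraries, 155, 38.3 and 42.5 CPM in sgSik1, 74.7 and 63.5 CPM in sgSik1-3, and 13.5, 15.1, 18.7 and 19.9 CPM in KT. On TMM sizes no library overlapped between KT and the others, and sgSik1 replicate 1 was far above the rest. Scaled by total count, sgSik1 replicate 1 had 61.0 CPM of Dusp4, beside 55.8 CPM in sgSik1-3 replicate 1. Dusp4 rose by 2.15 with Sik targeting (SE 0.40, adjusted p 0.00509). With Lkb1 deletion its change was 1.18 (SE 0.42, adjusted p 0.216) and passed in 0 of 12 fits without a single library. Its level averaged 38.1 ± 6.44 CPM in Lkb1-deleted libraries (SD, n = 3) and 74.8 ± 47.2 CPM in Sik-targeted libraries (n = 5), a difference of -0.97 that did not pass (SE 0.42, adjusted p 0.361).

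Dusp5 (chromosome 19, 53529145 to 53541809, plus strand), a nuclear phosphatase that acts on ERK, was the scarcest member and had the largest fitted change. It had 20.9, 6.48 and 6.98 CPM in Lkb1-deleted libraries, 35.0, 6.55 and 11.6 CPM in sgSik1, 6.38 and 14.1 CPM in sgSik1-3, and 0.787, 1.86, 2.09 and 2.76 CPM in KT. In KT these levels rest on 5, 25, 26 and 13 counts, so counting error alone is wide, but the 8 other libraries, with 27 to 212 counts, lay above all KT libraries. Dusp5 rose by 2.96 with Sik targeting (SE 0.61, adjusted p 0.00821). With Lkb1 deletion its change of 2.61 missed the threshold (SE 0.64, adjusted p 0.0665), and it passed in 1 of 12 fits without a single library. DESeq2 gave it an adjusted p of 0.00557, and edgeR on unfiltered genes 8.91e-05. Those 2 fits called 553 and 846 genes in all, beside 158 in the main fit. With total-count scaling its adjusted p in edgeR was 0.111, and without KT replicates 2 and 3 together 0.476.

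The upstream sequences of Dusp1 and Dusp5 are shown because these genes ranked the libraries most alike of all pairs of members (Spearman's rho 0.97 over 12 libraries, 0.92 after subtracting group means, from libraries that share depth and scaling). They are the 250 bases before the transcript start on the strand of the gene, from RefSeq's table of GRCm38.p6. The Dusp1 sequence (chr17:26508473-26508722, minus strand) has 250 bases. The Dusp5 sequence (chr19:53528895-53529108, plus strand) has the first 214 of them, up to the start in GENCODE vM21, which lies upstream of the RefSeq start used for the positions given here. Capitals mark matches on either strand to TGACG, the first letters of the cyclic AMP response element TGACGTCA, and in Dusp5 also to the CArG box, the motif of serum response factor.
Dusp1: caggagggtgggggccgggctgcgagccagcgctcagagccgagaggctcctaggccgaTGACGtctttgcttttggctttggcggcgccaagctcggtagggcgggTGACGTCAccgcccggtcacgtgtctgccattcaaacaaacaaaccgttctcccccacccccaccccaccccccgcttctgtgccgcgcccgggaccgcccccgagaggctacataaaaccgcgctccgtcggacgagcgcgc
Dusp5: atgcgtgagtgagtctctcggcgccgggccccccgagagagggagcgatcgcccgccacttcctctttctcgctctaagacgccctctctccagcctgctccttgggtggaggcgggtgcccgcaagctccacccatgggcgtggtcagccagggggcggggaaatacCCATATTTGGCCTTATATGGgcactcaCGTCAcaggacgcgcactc

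Dusp1 held the full element TGACGTCA 143 to 136 bases before the start, a motif found in 1.77% of 27025 genes in windows of 250 bases on both strands. TGACG was found in Dusp1, Dusp5 and Spred2, 3 of the 7 members matched in that table, and in 19.8% of all genes. Full elements contain TGACG and are counted under both. Dusp5 held a pair of adjoining CArG boxes 82 to 63 bases before the start, and 1.62% of genes held at least 1. TGANTCA, the AP-1 motif, was in 0 of the 7 windows and in 7.82% of genes. Dusp6, Spry1, Spry2 and Spred1 held none of these motifs in the window, and Dusp4, Spry4 and Phlda1 were not matched. A match describes the letters of the window and is no evidence of binding.

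Dusp6 (MKP-3; chromosome 10, 99263231 to 99267489, plus strand) is a cytoplasmic phosphatase with a strong preference for ERK. It had 388, 172 and 207 CPM in Lkb1-deleted libraries, 611, 204 and 255 CPM in sgSik1, 282 and 299 CPM in sgSik1-3, and 55.1, 44.1, 34.7 and 90.0 CPM in KT. The highest KT library, replicate 4, stood well below the lowest of the others, Lkb1-deleted replicate 2. Dusp6 rose by 2.19 with Lkb1 deletion (SE 0.45, adjusted p 0.0365) and by 2.56 with Sik targeting (SE 0.42, adjusted p 0.00281). It passed with Lkb1 deletion in 7 of 12 fits without a single library. Scaled by total count without TMM, Dusp6 still did not overlap with KT, at 175 to 338 CPM in Lkb1-deleted, 155 to 335 CPM in Sik-targeted and 64.7 to 102 CPM in KT libraries.

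The 5 genes outside the set that ranked the 12 libraries most like Dusp6, of 10129 genes with a mean of at least 2 CPM, were Abcc3 (rho 0.99, Pearson's r 0.90), Fam102a (rho 0.98, r 0.90), Bcr (rho 0.97, r 0.96), Gnai2 (rho 0.97, r 0.89) and Srxn1 (rho 0.97, r 0.88). Among members, Dusp5, Dusp1 and Spry4 were nearest to Dusp6 (rho 0.90, 0.88 and 0.88), and Spred1, Spry2 and Spry1 ran weakly the other way (rho -0.16, -0.24 and -0.34). These values describe libraries that share depth, scaling and the split between KT and the rest.

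Sproutys block the path from receptor tyrosine kinases to Ras and Raf, and the 3 measured here went different ways. Spry4 (chromosome 18, 38586247 to 38601347, minus strand) had 62.7, 30.5 and 23.0 CPM in Lkb1-deleted libraries, 56.3, 37.3 and 39.2 CPM in sgSik1, 42.1 and 29.1 CPM in sgSik1-3, and 15.7, 7.97, 7.79 and 12.3 CPM in KT. It rose by 1.83 with Lkb1 deletion (SE 0.40, adjusted p 0.0408, passing in 3 of 12 fits without a single library) and by 1.90 with Sik targeting (SE 0.37, adjusted p 0.00652). All 8 libraries outside KT were above the KT libraries.

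Spry1 (chromosome 3, 37639947 to 37644599, plus strand) separated the genotypes. It had 48.1, 61.5 and 62.4 CPM in Lkb1-deleted libraries, 19.6, 23.5 and 16.4 CPM in sgSik1, 19.6 and 13.8 CPM in sgSik1-3, and 36.2, 43.4, 33.4 and 45.4 CPM in KT. Lkb1-deleted libraries were the highest, KT libraries lay between, and Sik-targeted libraries were the lowest, without overlap between any of these groups. Spry1 fell by 1.09 on the log2 scale with Sik targeting (SE 0.26, adjusted p 0.0157), and its change with Lkb1 deletion was 0.53 (SE 0.29, adjusted p 0.469). Compared directly, it was 1.63 higher on the log2 scale in Lkb1-deleted than in Sik-targeted libraries (SE 0.28, 95% interval 1.04 to 2.21, adjusted p 0.0267). It was the 1 member that passed between these genotypes, where 0.103% of genes were higher and 0.118% lower.

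The direct difference in Spry1 kept its size, between 1.54 and 1.73, in the fits without a single library, but passed in 5 of 12. It did not pass without Lkb1-deleted replicate 2 or 3 (adjusted p 0.161 and 0.110), sgSik1 replicate 3 (0.0882), sgSik1-3 replicate 1 or 2 (0.0589 and 0.102) or KT replicate 2 or 3 (0.0548 and 0.0506). Scaled by total count alone, Spry1 was 1.93 higher in Lkb1-deleted than in Sik-targeted libraries (adjusted p 0.0536). On that scale it changed by -2.11 with Sik targeting (adjusted p 0.00181) and by -0.18 with Lkb1 deletion (adjusted p 0.783), so that its position against KT in Lkb1-deleted libraries turned with the scaling. With only these 2 groups fitted, the direct difference was 1.65 (adjusted p 0.155).

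Spry2 (chromosome 14, 105891947 to 105896819, minus strand) had 32.9, 113 and 83.9 CPM in Lkb1-deleted libraries, 74.2, 75.4 and 49.998 CPM in sgSik1, 20.6 and 40.9 CPM in sgSik1-3, and 73.2, 73.1, 52.4 and 40.3 CPM in KT. Lkb1-deleted replicate 1 was well below the other 2 of its group. Its changes were 0.36 with Lkb1 deletion (95% interval -0.62 to 1.33, adjusted p 0.811) and -0.20 with Sik targeting (-1.06 to 0.67, adjusted p 0.803). Neither passed.

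Spreds are membrane proteins that bring the Ras inactivator neurofibromin to the membrane. Spred1 (chromosome 2, 117121071 to 117182279, plus strand) had 67.1, 101 and 103 CPM in Lkb1-deleted libraries, 19.3, 91.5 and 79.9 CPM in sgSik1, 52.4 and 36.2 CPM in sgSik1-3, and 49.4, 51.0, 55.6 and 52.8 CPM in KT. All Lkb1-deleted libraries were above KT, while Sik-targeted libraries lay on both sides and sgSik1 replicate 1 was the lowest of all 12. The changes were 0.79 with Lkb1 deletion (SE 0.42, adjusted p 0.456) and 0.10 with Sik targeting (SE 0.37, adjusted p 0.896). Spred2 (chromosome 11, 19924442 to 20024026, plus strand) had 108, 79.4 and 92.0 CPM in Lkb1-deleted libraries, 96.1, 72.2 and 82.6 CPM in sgSik1, 74.7 and 74.2 CPM in sgSik1-3, and 39.2, 41.4, 46.2 and 87.2 CPM in KT. Its groups overlapped through KT replicate 4. The changes of Spred2 were 0.80 (SE 0.32, adjusted p 0.278) with Lkb1 deletion and 0.58 (SE 0.29, adjusted p 0.198) with Sik targeting.

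Phlda1 (chromosome 10, 111506286 to 111508649, plus strand) encodes a small protein with a pleckstrin homology-like domain that is induced by ERK and dampens ErbB receptor signalling. It had 653, 911 and 1222 CPM in Lkb1-deleted libraries, 2355, 843 and 805 CPM in sgSik1, 1443 and 1006 CPM in sgSik1-3, and 138, 237, 189 and 345 CPM in KT. Every library outside KT was above every KT library. Phlda1 rose by 2.03 with Lkb1 deletion (SE 0.45, adjusted p 0.0414, passing in 4 of 12 fits without a single library) and by 2.503 with Sik targeting (SE 0.42, adjusted p 0.00335). It ranked the libraries like Dusp4 (rho 0.96, and 0.88 after subtracting group means, n = 12).

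**Figure D3:**
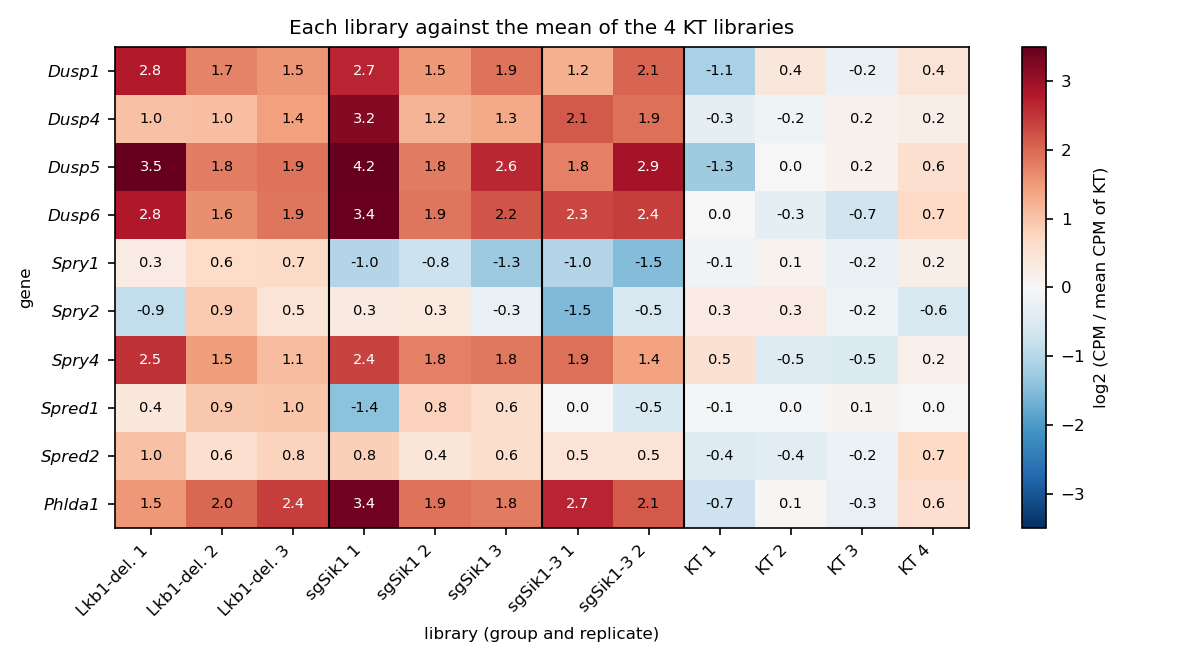
Each library (columns, by group) against the mean of the 4 KT libraries, as the log2 ratio of CPM for each member (rows). Red is higher and blue lower than the KT mean. Spry1 is the only member that is above 0 in all Lkb1-deleted libraries and below 0 in all sgSik1 and sgSik1-3 libraries, and the sign of its change with Lkb1 deletion turns under total-count scaling. The column of sgSik1 replicate 1 holds the strongest values for Dusp4, Dusp5, Dusp6 and Phlda1. The ratios are on TMM sizes, where that library has the lowest size factor (0.394).

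Taken per kilobase of merged exons, mean levels in Lkb1-deleted libraries were ordered from Dusp1 (655 CPM per kb) and Phlda1 (421) over Dusp6 (81.6) to Spry4 (8.26) and Dusp5 (6.31). In KT libraries Dusp1 (150 CPM per kb) and Phlda1 (103) again led, followed by Spry2 (28.6), Dusp6 (17.9), Spry1 (13.6), Spred2 (11.8), Spred1 (7.70), Dusp4 (6.93), Spry4 (2.34) and Dusp5 (1.03). Dusp1 and Phlda1 overlapped in their KT ranges, as did Spry2 with Dusp6, Dusp6 with Spry1, Spry1 with Spred2, and Spred1 with Dusp4. In sgSik1 libraries Spry1 was the lowest member (6.82 CPM per kb). Exons of Dusp5, Spry1 and Phlda1 share 511, 710 and 727 bases with genes annotated on the opposite strand that the count table does not list. The strand setting of the counting is not given, so reads of those genes cannot be told from theirs.

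By guide group, 6 members rose and 0 fell in sgSik1 libraries against KT, where 2.71% of 15303 genes rose and 1.13% fell. In sgSik1-3 libraries 3 members rose and 0 fell, where 1.74% of genes rose and 1.15% fell. These comparisons share the KT libraries. Dusp6 rose by 2.69 in sgSik1 (SE 0.46, adjusted p 0.00654) and by 2.39 in sgSik1-3 (SE 0.49, adjusted p 0.0185), Phlda1 by 2.57 (SE 0.46, adjusted p 0.00849) and 2.45 (SE 0.50, adjusted p 0.0171), and Dusp4 by 2.24 (SE 0.44, adjusted p 0.0129) and 2.06 (SE 0.48, adjusted p 0.0316). Dusp1, Dusp5 and Spry4 rose in sgSik1 by 2.13, 3.24 and 2.04, and their changes of 1.72, 2.48 and 1.72 in sgSik1-3 missed the threshold (adjusted p 0.0778, 0.0596 and 0.0504). Spry1 changed by -0.97 in sgSik1 and -1.23 in sgSik1-3, with adjusted p 0.0983 and 0.0912.

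The sgSik1 count was 2 without KT replicate 2 and 3 without KT replicate 3 or sgSik1 replicate 1. In those fits 134, 159 and 138 genes passed in all, beside 588 in the main fit. The sgSik1-3 count was 0 without KT replicate 1, 2 or 3, 6 without Lkb1-deleted replicate 1 or sgSik1 replicate 1, and 5 without sgSik1 replicate 2. In those fits 180, 136, 132, 1127, 729 and 670 genes passed in all, beside 443 in the main fit. Fits without a sgSik1-3 library leave 1 in that group, and no count is given for them. Without KT replicates 2 and 3 together both counts were 0. Between sgSik1-3 and sgSik1, 0 members and 0% of genes passed in either direction with edgeR, with 528 genes at an unadjusted p under 0.05, and DESeq2 called 0 members. The member past that unadjusted limit was Spry2, at 20.6 and 40.9 CPM in sgSik1-3 and 49.998 to 75.4 CPM in sgSik1 (log2 difference -1.12, 95% interval -2.22 to -0.01, adjusted p 1). The intervals of the others ran from -2.31 for Dusp5 to 1.03 for Phlda1, so differences of that size between guide groups were not detectable here.

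Other genes of the pathway were read from lists, whose differences from each other were not tested. Of 15 other ERK-induced transcripts, 3 rose and 0 fell with Lkb1 deletion, where 0.611% of all genes rose, and 10 rose and 2 fell with Sik targeting, where 5.81% rose and 6.56% fell. Their medians were 1.87 and 2.28. With total-count scaling 1 rose with Lkb1 deletion, where 155 of 13575 genes passed in either direction. With Sik targeting 7 rose and 2 fell on that scale, where 4565 genes passed. With Lkb1 deletion 0 rose without KT replicate 1, 2 or 3, and 6 without sgSik1 replicate 1. With Sik targeting 6 rose without KT replicate 2 or 3. Fosl1, an AP-1 subunit, had 21.9, 17.9 and 11.2 CPM in Lkb1-deleted libraries, 122, 5.69, 20.3, 13.5 and 17.6 CPM in Sik-targeted libraries, and at most 0.447 CPM (1 to 6 counts) in KT. Fosl1 passed in both comparisons, but it met the low-count filter only through the libraries where it is high, and no fold is given for it. Egr2, a zinc finger factor, rose by 2.86 and 2.89 (adjusted p 0.0179 and 0.00274). Egr3 rose by 3.35 with Lkb1 deletion (adjusted p 0.0408), and Plaur and the cytokine gene Lif rose by 3.44 and 3.63 with Sik targeting (adjusted p 0.00123 and 0.00282). The 2 that fell, named after their values were seen, were the ETS factors Etv1 (log2 change -2.75, adjusted p 0.0181) and Etv5 (-2.11, adjusted p 0.00351). Etv5 had 75.7, 136 and 190 CPM in Lkb1-deleted libraries, 44.5 to 91.1 CPM in Sik-targeted libraries and 155 to 327 CPM in KT. Without KT replicates 2 and 3 together, 0 of the ERK-induced transcripts rose with Lkb1 deletion, and 1 rose and 1 fell with Sik targeting.

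Of 8 EGF family ligands, which activate the receptors at the top of the pathway, 3 rose in both comparisons and 0 fell, with 0.611% and 5.81% of all genes rising. Ereg had 323, 315 and 205 CPM in Lkb1-deleted libraries, 170 to 428 CPM in Sik-targeted libraries and 35.9 to 55.7 CPM in KT, and rose by 2.66 (SE 0.36, adjusted p 0.00420) and 2.81 (SE 0.34, adjusted p 0.000404). Areg rose by 2.01 and 2.20 (adjusted p 0.0197 and 0.00207) and Hbegf by 2.02 and 1.55 (adjusted p 0.0143 and 0.00624). The Lkb1-deleted and Sik-targeted libraries did not overlap with KT for any of the 3. With total-count scaling 0 ligands rose with Lkb1 deletion, where 155 of 13575 genes passed in either direction. With Sik targeting 2 rose and 1 fell on that scale, where 4565 genes passed. With Lkb1 deletion 1 rose without KT replicate 3. Without KT replicates 2 and 3 together 0 rose with Lkb1 deletion and 2 with Sik targeting.

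Of 10 tested other members of the DUSP, Sprouty and Spred families, Dusp10, a phosphatase of JNK and p38, rose in both comparisons (2.34 and 1.68, adjusted p 0.0383 and 0.0270). Over all genes 0.611% rose with Lkb1 deletion, and 5.81% rose and 6.56% fell with Sik targeting. With Sik targeting Dusp9 also rose and Dusp22 fell (2.32 and -2.46, adjusted p 0.0151 and 0.0124). Dusp2 passed as well (adjusted p 0.0333), with 3 to 21 counts in Sik-targeted libraries and at most 1 count in a KT library. It met the low-count filter only through the Sik-targeted libraries, where it is high, and no fold is given for it. Of 14 tested other inhibitors of the pathway, 0 passed with Lkb1 deletion. Errfi1, an inhibitor of EGFR, was the 1 that passed with Sik targeting, rising by 1.602 (adjusted p 0.0262). That count lay near the 5.81% of all genes that rose. Of 15 receptors and adaptors 0 passed with Lkb1 deletion, while Shc1 rose by 0.89 and Fgfr2 fell by 1.39 on the log2 scale with Sik targeting (adjusted p 0.0437 and 0.0132). Of 14 genes for Ras, Raf, MEK, ERK and their scaffolds or substrates, 1 passed on TMM sizes, Rps6ka1, rising by 1.80 with Sik targeting (adjusted p 0.0220). Of 11 genes for JNK, p38 and ERK5, 1 passed on TMM sizes, Mapk12, falling by 2.16 on the log2 scale with Sik targeting (adjusted p 0.0433). The medians of these last 3 lists lay between 0.00 and 0.33 in both comparisons, and with Sik targeting their counts lay near the 5.81% of genes that rose and 6.56% that fell. With total-count scaling 0 rose and 4 fell with Sik targeting in each of these 3 lists. In the 2 lists before them 0 rose on that scale, while 3 of the phosphatase, Sprouty and Spred genes and 1 of the other inhibitors fell. These falls stand beside 4565 of 13575 genes that passed with Sik targeting on that scale, where the median change of all genes was -1.06. Each call in the 5 lists was lost without KT replicates 2 and 3 together. Without KT replicate 2 or 3 alone, no list member rose with Sik targeting among the other inhibitors, the receptors and adaptors or the Ras to ERK genes, and none of the JNK, p38 and ERK5 genes fell. Dusp10's list had 0 rising with Lkb1 deletion without KT replicate 1, 2 or 3, and 1 rising with Sik targeting.

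**Figure D4:**
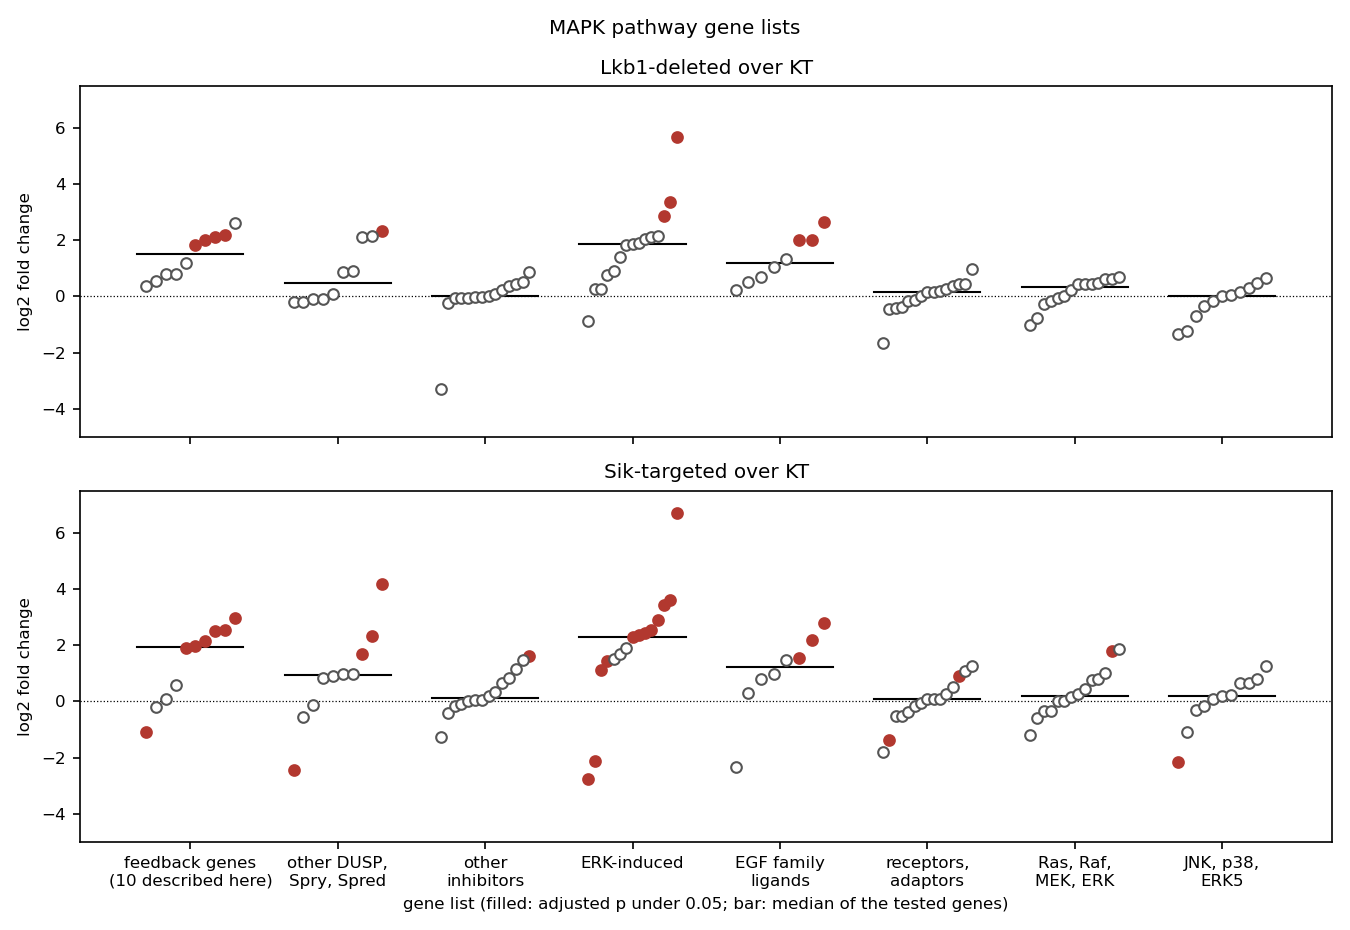
Log2 fold change (y axis) of every tested gene in 8 lists of the MAPK pathway (x axis), in Lkb1-deleted over KT (top) and Sik-targeted over KT (bottom). Filled points passed at an adjusted p under 0.05 and bars are list medians. The medians of the 10 feedback genes (1.505 and 1.93), the ERK-induced transcripts (1.87 and 2.28) and the ligands (1.18 and 1.23) lie above those of the kinases and receptors on TMM sizes, a difference that was not tested.

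Other measures moved with the same groups. A list held 26 immediate early and heat shock genes that the handling of tissue is known to switch on, with Egr1 and Ier3 also among the ERK-induced transcripts. With Lkb1 deletion 9 of them rose and 0 fell, where 0.611% of all genes rose and 0.552% fell. With Sik targeting 12 rose and 0 fell, where 5.81% of all genes rose and 6.56% fell. With total-count scaling 3 rose with Lkb1 deletion, where 155 of 13575 genes passed in either direction. With Sik targeting 5 rose and 1 fell on that scale, where 4565 genes passed. Without KT replicates 2 and 3 together 0 rose in either comparison. With Lkb1 deletion 0 rose without KT replicate 2 or 3 alone and 16 without sgSik1 replicate 1, and with Sik targeting 6 rose without KT replicate 2 or 3. The list summed to 15482 to 22559 CPM in Lkb1-deleted libraries, 11081 to 28982 CPM in sgSik1, 10464 to 12022 CPM in sgSik1-3 and 2824 to 6317 CPM in KT, with 0 of its genes at 0. Its leading genes were Dnajb1, Fosb, Klf4 and Nr4a1 with Lkb1 deletion (3.05, 2.81, 3.16 and 2.76) and Ier3, Nr4a1, Nfkbia and Klf4 with Sik targeting (2.54, 2.86, 1.496 and 2.63). On TMM sizes the libraries highest in this list, sgSik1 replicate 1 and Lkb1-deleted replicate 1, were also the highest for Dusp1, Dusp5, Dusp6, Spry4 and Spred2. For Phlda1 and Dusp4, sgSik1 replicate 1 was the highest library (2355 and 155 CPM), and Lkb1-deleted replicate 1 was the lowest outside KT (653 and 34.1 CPM). Other libraries were the highest for Spry1, Spry2 and Spred1. The TMM size factor of sgSik1 replicate 1 was the lowest of all libraries (0.394), which raises all its CPM values alike. Scaled by total count, that library was the highest for Dusp4 alone (61.0 CPM), and the lowest of all libraries for Spred2 (37.8 CPM). Lkb1-deleted replicate 1 was the highest on that scale for Dusp1, Dusp5, Dusp6 and Spry4. The part of handling in the members' changes was not tested.

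Epithelial markers were present in every library, at 1604 to 2812 CPM in Lkb1-deleted, 1960 to 5993 CPM in sgSik1, 2881 to 4668 CPM in sgSik1-3 and 1020 to 1433 CPM in KT libraries, summed over 8 genes. With Sik targeting 4 of these 8 rose (Krt7, Krt8, Krt18 and Krt19), where 5.81% of all genes rose, and with Lkb1 deletion 0. Of 8 markers of alveolar type 2 cells, 0 passed with Lkb1 deletion. With Sik targeting Sftpc, Lamp3 and Slc34a2 fell (log2 change -3.98, -2.70 and -1.42), where 6.56% of all genes fell. The 8 alveolar markers summed to 15186 to 38989 CPM in Lkb1-deleted, 11487 to 33309 CPM in sgSik1, 10404 to 11010 CPM in sgSik1-3 and 22719 to 83126 CPM in KT libraries.

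The sort removed CD45, CD31, F4/80 and Ter119 positive cells, among them macrophages. The 13 macrophage markers summed to 13.7 to 15.2 CPM in Lkb1-deleted, 13.8 to 24.7 CPM in sgSik1, 22.9 to 23.7 CPM in sgSik1-3 and 94.2 to 1134 CPM in KT libraries, with 3 to 7 of them at 0 outside KT and 0 to 2 in KT. C1qa was at 0 in all 8 libraries outside KT, but also in KT replicates 2 and 4, and had 2 and 3 counts in KT replicates 1 and 3. Cd68 and Mrc1 overlapped between KT and the other libraries. Cd68 had 19.3 CPM in sgSik1 replicate 1 and 10.1 CPM in KT replicate 1. Mrc1 had 9.45 CPM in sgSik1-3 replicate 1 and 6.92 CPM in KT replicate 1. Of the 8 macrophage markers tested, 4 fell with Lkb1 deletion and 6 with Sik targeting, where 0.552% and 6.56% of all genes fell. Ctss, Ccl6, Marco and Chi3l3 led in both. Ctss, Ccl6 and Marco met the low-count filter only through KT, and Marco and Ctss had at most 4 counts in any Lkb1-deleted library, so no folds are given for them. Chi3l3 had 3 to 53 counts outside KT and 188 to 12794 counts in KT. Of 12 other leukocyte markers, 8 to 11 were at 0 in every library outside KT and 1 to 9 in KT, and their sum was at most 15.2 CPM. Of the 2 tested, Ptprc, which encodes CD45, passed as lower in both comparisons. It met the low-count filter only through KT (5 to 106 counts), with at most 11 counts in any other library, so no fold is given for it. Endothelial markers (7 genes) summed to 1.09 to 160 CPM in Lkb1-deleted libraries, 12.6 to 29.5 CPM in Sik-targeted libraries and 14.0 to 26.3 CPM in KT. Fibroblast markers (8 genes) summed to 2.55 to 424, 14.1 to 40.5 and 28.5 to 395 CPM in those groups, and 4 erythroid markers to at most 3.65 CPM. Of 7 fibroblast markers tested, Col3a1 and Pdgfra fell with Sik targeting, where 6.56% of all genes fell. In bulk RNA of sorted cells, fewer cells of a type and less RNA per cell cannot be told apart, and the part of other cell types in the members' changes was not tested. KT replicate 4 had the fewest macrophage transcripts and the highest handling sum of the KT libraries, and was the highest of them for Dusp1, Dusp4, Dusp5, Dusp6 and Phlda1.

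**Figure D5:**
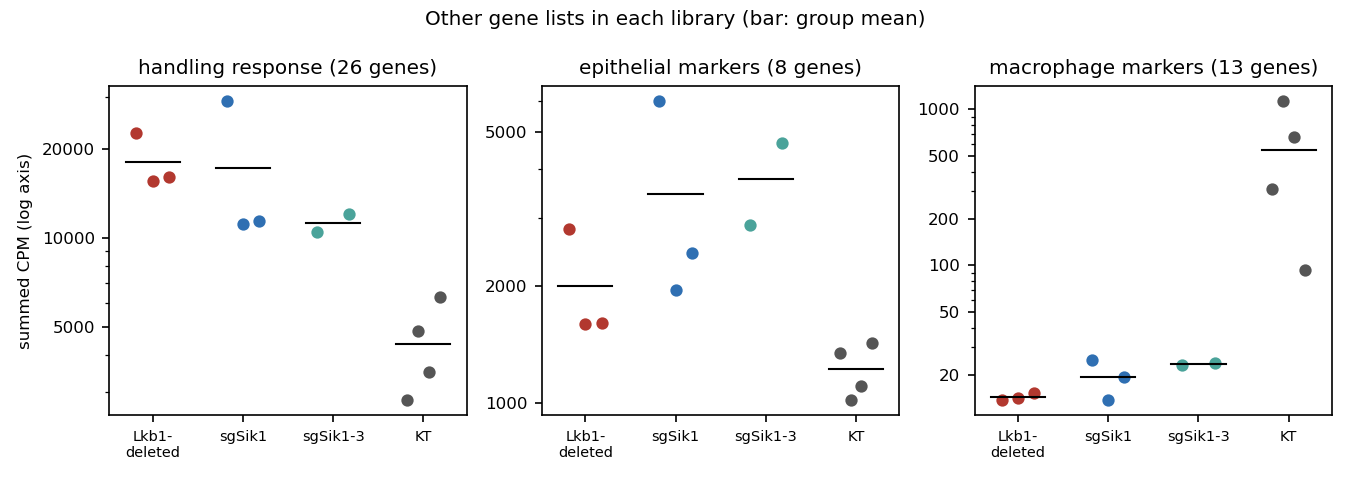
Summed CPM (log axis) of the handling response list, the epithelial markers and the macrophage markers in each library, by group (Lkb1-deleted, sgSik1, sgSik1-3, KT), with bars at group means. The handling list is at least 10464 CPM in all libraries outside KT and at most 6317 CPM in KT, and the macrophage markers are at most 24.7 CPM outside KT and at least 94.2 CPM in KT.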

How the data were processed

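Enzyme-digested tumours were sorted, and their RNA was amplified with an Ovation kit, per the labels' protocols. Reads were handled with STAR 2.4.2a and HTSeq on mm10, per the submitters' processing notes; neither the annotation nor the strand setting is given in the sources used here. The values deposited by the authors are whole-number counts per gene, without molecule tags. Libraries of a group differed by more than sampling noise (chi-square per degree of freedom at least 15.1).

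Tests used edgeR 4.0.16 (R 4.3.3) with TMM, filterByExpr and a robust quasi-likelihood fit, adjusted over all genes. A fit of 3 genotype groups (13575 genes) gave the Lkb1-deleted and pooled Sik-targeted comparisons, and a fit of 4 title groups (15303 genes) the guide comparisons. The SE is the log2 change over the square root of F. DESeq2 1.42.0, limma 3.58.1 (voom), other scalings, unfiltered genes and left-out libraries were alternatives. The scripts were tested on simulated data. Coordinates are RefSeq gene spans, and exon lengths are those of GENCODE vM21 within them. Named were the 10 members, up to 4 called genes per list and comparison by smallest p, and the 5 genes most like Dusp6. Members and lists were chosen with earlier results of these data known.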

Additional observations from a re-analysis of the deposited data

Results flagged for a closer look

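In sgSik1 replicate 1, Dusp5 (35.0 CPM) and Dusp6 (611 CPM) stood farther above the rest of the 5 Sik-targeted libraries than a test for single outlying samples allows. That library also had the largest share of counts in its 4 most abundant transcripts (74.2%) and the highest sum of the handling list (28982 CPM). Its TMM size factor was the lowest of all libraries (0.394), and a low factor raises all CPM values of a library alike. Scaled by total count, Dusp5 had 13.8 CPM there and 15.2 CPM in sgSik1 replicate 3, and Dusp6 had 240 and 335 CPM. Whether the outlying values, the share of the 4 transcripts and the handling sum are connected was not tested. Without sgSik1 replicate 1, Dusp5 and Dusp6 still rose with Sik targeting.

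Spred2 in KT replicate 4 (87.2 CPM) stood above the other 3 KT libraries (39.2 to 46.2 CPM) by the same test. Of 20 groups of values examined, 3 were picked out in this way, and chance picks out about 1 in 20.

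Spry1 differed between the genotypes, with a log2 difference of 1.63 between Lkb1-deleted and Sik-targeted libraries (adjusted p 0.0267 in edgeR), higher in 3 of 3 Lkb1-deleted libraries than in all Sik-targeted ones.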

How the results depend on the processing

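The count of members past the threshold with Lkb1 deletion (4) was 2 with only the 2 groups fitted, 0 without KT replicates 2 and 3 together and 0 with total-count scaling, which was added after the data were seen. It ran from 0 to 5 over fits without a single library. The count with Sik targeting (7) was 0 without KT replicates 2 and 3 together, 5 with total-count scaling and 6 to 7 without a single library. Between Lkb1-deleted and Sik-targeted libraries the count (1, Spry1) was 0 with only the 2 groups fitted, 0 without KT replicates 2 and 3 together, 0 with total-count scaling and 0 to 1 without a single library. For sgSik1 against KT (6) it was 0 without KT replicates 2 and 3 together, 2 with total-count scaling and 2 to 6 without a single library. For sgSik1-3 against KT (3) it was 7 with DESeq2, 5 without a low-count filter, 7 with only the 2 groups fitted, 0 without KT replicates 2 and 3 together, 1 with total-count scaling and 0 to 6 without a single library. For sgSik1-3 those settings but the last called 1296, 1440, 1941, 11 and 1065 genes over all, beside 443 in the main fit. In the 4 comparisons before it, total-count scaling called 155, 4565, 31 and 997 genes over all, beside 158, 1679, 30 and 588 in the main fits. Without KT replicates 2 and 3 together 3, 98, 9 and 1 passed there. After subtracting group means, 6 of 15 same-numbered pairs of libraries correlated above 0.1 (range -0.38 to 0.23). Pairs with unlike numbers were not compared, so these values cannot decide whether replicate numbers pair the libraries. With the replicate block the counts were 1, 6, 0, 3 and 1 in the same order, and 0 between sgSik1-3 and sgSik1, as in every setting run.

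Directions that turned were those of changes that did not pass on TMM sizes. With total-count scaling they were Spry1 (-0.18) and Spry2 (-0.37) with Lkb1 deletion, and Spred1 (-0.75) and Spred2 (-0.37) with Sik targeting. Between Lkb1-deleted and Sik-targeted libraries they were Dusp5 (0.10), Dusp6 (0.030) and Spry4 (0.23). For sgSik1 against KT they were Spry2 (-0.93), Spred1 (-0.45) and Spred2 (-0.25), for sgSik1-3 against KT Spred2 (-0.57), and for sgSik1-3 against sgSik1 Dusp4 (0.038) and Phlda1 (0.021). With limma-voom they were Spred1 with Sik targeting (-0.069), and Dusp4 (0.16) and Phlda1 (0.031) for sgSik1-3 against sgSik1. Without a single library, Spry2 ran from -0.020 to 0.73 with Lkb1 deletion, and Spry2 from -0.37 to 0.0089 and Spred1 from -0.15 to 0.30 with Sik targeting. Between Lkb1-deleted and Sik-targeted libraries Dusp1 ran from -0.32 to 0.41, Dusp5 from -1.12 to 0.24 and Spry4 from -0.62 to 0.19. For sgSik1 against KT Spry2 ran from -0.023 to 0.35 and Spred1 from -0.036 to 0.71, and for sgSik1-3 against KT Spred1 from -0.51 to 0.032. For sgSik1-3 against sgSik1 Dusp4 ran from -0.51 to 0.80, Dusp5 from -1.45 to 0.20, Dusp6 from -0.57 to 0.36 and Phlda1 from -0.41 to 0.59. The cause was not tested. Low counts limit Dusp5, and groups of 2 to 5 libraries limit all members.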
